A study of Mus musculus with 12 samples.

Results

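A set of 19 genes rose in control cardiac fibroblasts between Day 3 and 4 weeks of culture and fell over the same interval in fibroblasts given *Sox17*-*Erg*. They were *Pappa*, *Fbn2*, *Ccbe1*, *Sema3d*, *Cpxm1*, *Egfr*, *Lrrc32*, *Eda*, *Fat3*, *Gabra3*, *Slc1a3*, *Gsta4*, *St3gal1*, *Mpp6*, *Rarb*, *Satb1*, *Peg3*, *Hic1* and *Gm14327*. They were chosen from 21793 protein-coding rows of the bulk RNAseq table by their measured levels, expressed as log2(1 + CPM), where CPM is the gene's count per 1000000 counts of its library. The mean of the 2 control libraries had to be at least 0.7 higher at 4 weeks than at Day 3, the mean of the 2 *Sox17*-*Erg* libraries at least 0.7 lower, and the 2 time points could not overlap in either treatment. The Day 3 and 4-week levels therefore describe how the genes were picked and carry no test. Only the difference at Day 7 was tested, and the main test used the Day 7 libraries alone, which the choice did not use. Of the alternative fits, 2 also drew on the other libraries.

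RNA came from cultures started from pooled neonatal mouse hearts. Each of the 2 treatments was sampled at 3 times, Day 3, Day 7 and 4 weeks, and each of the 6 groups has 2 libraries, 12 in all. The cells were grown in EGM2, an endothelial growth medium. *Sox17*-*Erg* cells (labelled se, cell type iEC, for induced endothelial cell) received retroviral *Sox17* and *Erg*, and control cells are labelled fibroblast. The control columns carry the name of the retroviral backbone, pMX, and the sources used here do not say what control cells received. The methods describe fibroblast isolation by magnetic selection of THY1-positive cells with a prior depletion of PECAM1-positive endothelial cells, a step the study added when it characterized the induced endothelial cells. The labels themselves do not mention the isolation. The methods name *C57BL/6J* mice and *Tcf21*-CreERT2 mice bred with *Rosa26*-tdTomato as sources of cells, and do not say which gave these libraries. The study's reporting summary lists a neonatal age for *C57BL/6J* mice only, so by the ages given these neonatal cultures came from that strain. No source says that the 2 libraries of a group came from separate isolations, so the p-values below measure only the spread between these libraries, which may be technical.

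Library totals ran from 19011635 to 41240449 estimated counts. *Sox17* was at 411 to 1012 CPM in the *Sox17*-*Erg* libraries and at no more than 0.400 in control, and *Erg* at 17.1 to 63.6 against at most 2.18. *Cdh5*, which encodes VE-cadherin, was at 141 to 484 CPM with *Sox17*-*Erg* and at no more than 13.7 in control. Control replicate 2 stood apart in both, with *Erg* at 2.18 CPM (Day 3) and 1.32 (Day 7) against 0.0738 and 0.0798 in control replicate 1, and *Cdh5* at 13.7 and 7.81 against 0.923 and 0.239. The Day 7 test includes that library, and calls without it are given below. Over the whole list of 22 endothelial genes, which holds *Erg* itself, the sums lay closer, at 768 to 851 CPM in control and 1003 to 1105 with *Sox17*-*Erg* on Day 3, at 1097 to 1339 and 1373 to 1518 on Day 7, and overlapping at 4 weeks (1446 to 2172 and 1736 to 1802). Of its 20 genes tested at Day 7, 3 were higher with *Sox17*-*Erg* and 1 lower, with a median log2 fold change of 0.42, while *Cdh5* and *Erg* had edgeR adjusted p of 0.0599 and 0.0501. The fibroblast genes *Thy1*, *Pdgfra* and *Tcf21* were detected in every library of both treatments. Markers of the fibroblasts and of other cells also differed between times and treatments. The summed level of 25 fibroblast identity genes was between 6974 and 8849 CPM at Day 3 and between 28336 and 28901 at 4 weeks in control. It was between 2683 and 4237 and then 10696 and 10767 with *Sox17*-*Erg*. Without *Gpx3*, the gene of the highest mean level, the control sums were 5717 and 7343 CPM and then 22437 and 23091. Those with *Sox17*-*Erg* were 2484 and 3748 and then 5637 and 6649. In control 21 of the 25 genes had a higher mean at 4 weeks than at Day 3, as did 17 with *Sox17*-*Erg*. The 20 macrophage and leukocyte genes mostly moved the other way. In control 17 of them had a lower mean at 4 weeks than at Day 3, as did 16 with *Sox17*-*Erg*. Their sum nevertheless ranged from 758 to 1150.5 CPM in the Day 3 control libraries and from 2326.5 to 3788 in those of 4 weeks. *Apoe*, which other cells express too, made up most of it at 4 weeks. Without *Apoe* the control sums were 954 and 605 CPM (Day 3), 1567 and 2127 (Day 7) and 173 and 764 (4 weeks), against 567 and 537, 438 and 764, and 194 and 594 with *Sox17*-*Erg*. For 14 epicardial and mesothelial genes the control sums ranged from 668 to 1425 CPM and then from 2029 to 3095. With *Sox17*-*Erg* they ranged from 319.8 to 490.5 and then from 502 to 667. Of the 14, 8 had a higher mean at 4 weeks in control and 4 with *Sox17*-*Erg*. No marker of these 3 lists was at 0 in both libraries of any group. The part of these cell types in the levels below was not tested. In bulk RNA, fewer cells that express a gene and less of its RNA per cell cannot be told apart.

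Cardiac fibroblasts make and remodel the matrix of the heart and respond to growth factors, TGF-beta and retinoic acid. When such cells are pushed toward an endothelial fate, fibroblast genes are commonly lost. *Sox17* and *Erg* encode transcription factors of the SOX and ETS families that act in endothelial, and for *Sox17* arterial, gene programs. The 19 genes include secreted and matrix proteins, receptors and other membrane proteins, enzymes and transcription factors.

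By each condition alone, 1600 protein-coding genes rose in control (7.34%) and 1401 fell with *Sox17*-*Erg* (6.43%), and the 19 that did both (0.0872%) made up 1.19% of the risers and 1.36% of the fallers. Of the risers in control, 925 (57.8%) also rose with *Sox17*-*Erg*, and 750 of the fallers with *Sox17*-*Erg* (53.5%) also fell in control. The mirror-image pattern, a fall in control with a rise in *Sox17*-*Erg*, was met by 67 genes (0.307%). The median step of the 19 genes was 1.18 in control and -0.96 with *Sox17*-*Erg*.

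**Figure D1:**
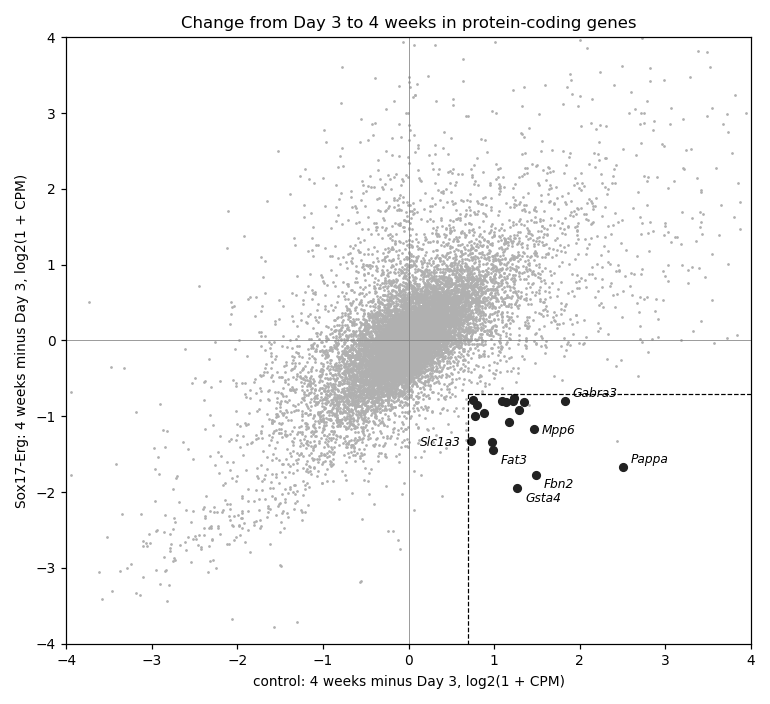
Change from Day 3 to 4 weeks in mean log2(1 + CPM) of the 2 libraries, in control on the x axis and with Sox17-Erg on the y axis, for protein-coding genes (grey, 19095 genes within the axes and 60 outside them). The 19 genes (black) lie inside the dashed lines at 0.7 and -0.7, most of them near the corner, with Pappa at 2.51 in control and Gsta4 at -1.95 with Sox17-Erg. The 2 grey points inside the lines are Rps27rt and Myh6, whose libraries overlapped.

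Most members lay near the limits. The closest inside were *Slc1a3*, with steps of 0.74 in control and -1.33 with *Sox17*-*Erg*, *Hic1* with 0.75 and -0.78, and *Cpxm1* with 1.24 and -0.76. The closest outside were *Ank3* with 0.86 and -0.69, *Nup35* with 0.69 and -0.82 and *Meox2* with 0.69 and -1.44. Only *Pappa*, *Fbn2*, *Gsta4*, *Mpp6* and *Eda* met a limit of 1.0, while a limit of 0.5 was met by 42 genes. The choice also turned on single libraries, since 31 genes met it without control replicate 1 at Day 3, and 30 without *Sox17*-*Erg* replicate 2 at Day 3. Members were lost as well. Without *Sox17*-*Erg* replicate 1 at Day 3, *Ccbe1*, *Gm14327*, *Peg3*, *Rarb*, *Satb1* and *Sema3d* no longer met it, and without that replicate at 4 weeks *Cpxm1*, *Egfr*, *Hic1*, *Satb1* and *Sema3d* did not. Leaving out control replicate 2 at Day 3 removed *Fat3*, *Sema3d*, *Slc1a3* and *St3gal1*, and the control step of *Sema3d* went from 0.80 to 0.28. The *Sox17*-*Erg* step of *Satb1* went from -0.81 to -0.36 without *Sox17*-*Erg* replicate 1 at Day 3, and that of *Cpxm1* from -0.76 to -0.34 without that replicate at 4 weeks. *Pappa*, *Fbn2*, *Gsta4*, *Mpp6*, *Eda* and *Gabra3* met the rule whichever of the 8 libraries was left out.

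The order of the treatments changed with time in 12 of the 19 genes, from a higher mean with *Sox17*-*Erg* at Day 3 to a lower one at 4 weeks. At Day 3, 12 of the 19 had both *Sox17*-*Erg* libraries above both control libraries (34.6% of the 14576 genes tested at Day 7 did) and 3 had both below (30.7%). At 4 weeks 2 were above (33.1%) and 16 below (28%). Both are time points that the choice used, so nothing is read from these counts. The median difference between the treatments on the log2(1 + CPM) scale went from 0.42 at Day 3 to -0.73 at Day 7 and -1.81 at 4 weeks. In control the larger part of the rise lay before Day 7, with a median step of 0.78 from Day 3 to Day 7 and 0.30 from Day 7 to 4 weeks, and with *Sox17*-*Erg* the larger part of the fall lay after it, with medians of -0.33 and -0.68. *Sema3d* was the exception to an early rise in control (-0.13), and *Pappa*, *Fbn2* and *Slc1a3* were the exceptions to an early fall with *Sox17*-*Erg* (0.42, 0.37 and 0.04).

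**Figure D2:**
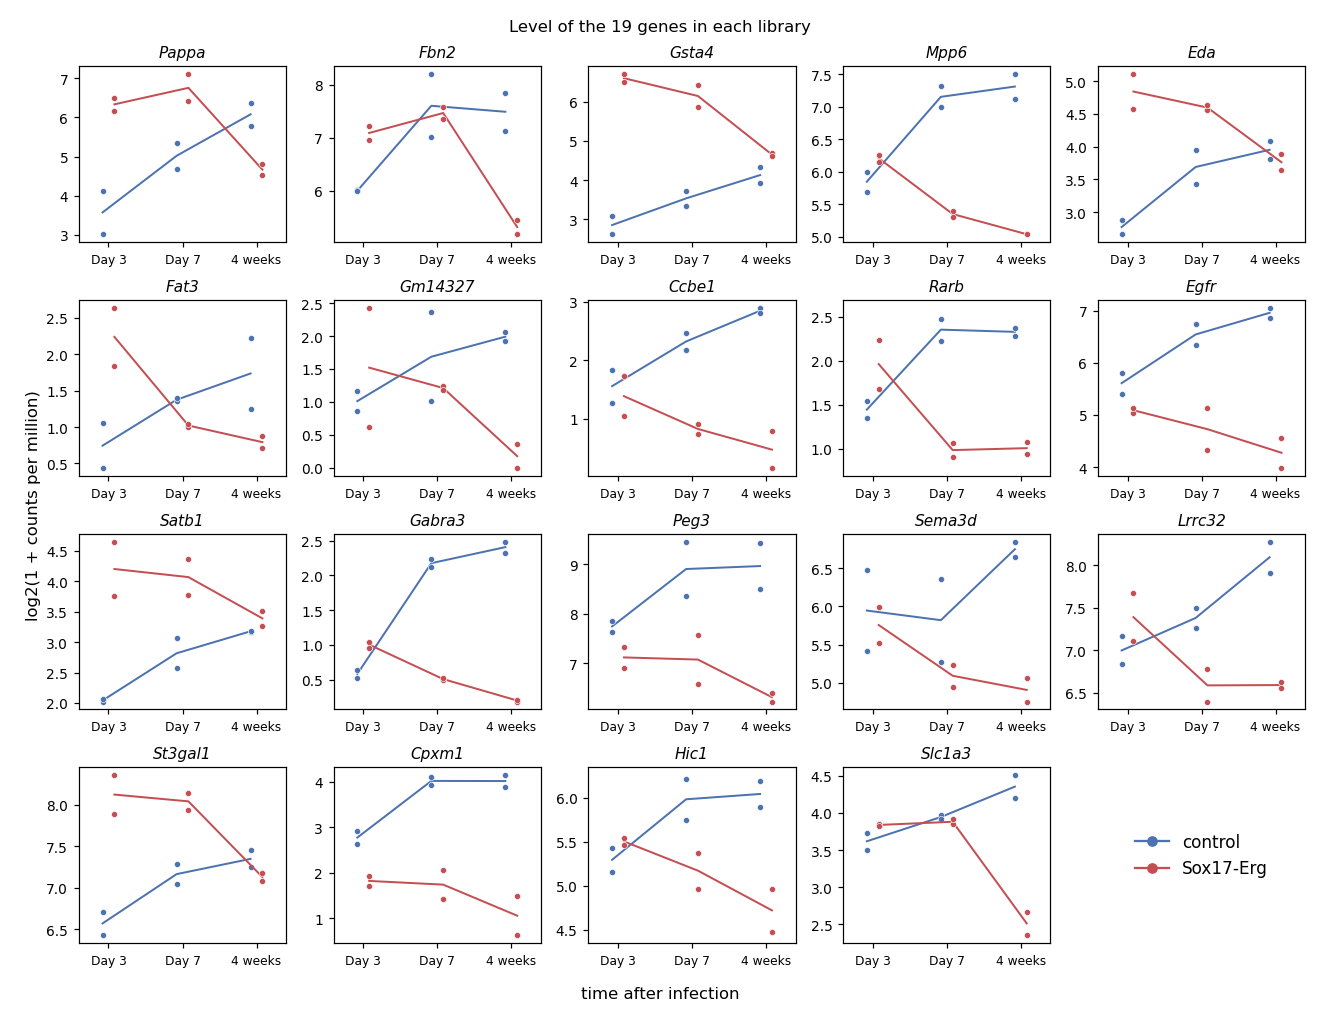
Level of each of the 19 genes as log2(1 + CPM) in every library (points) at Day 3, Day 7 and 4 weeks, with lines through the mean of the 2 libraries, in control (blue) and Sox17-Erg (red). Each panel has its own vertical scale. The lines cross between Day 3 and Day 7 in 9 panels and between Day 7 and 4 weeks in 3, while Gsta4 and Satb1 remain above control in both Sox17-Erg libraries at 4 weeks.

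At Day 7, 6 of the 19 genes were lower with *Sox17*-*Erg* and 2 were higher by edgeR's quasi-likelihood test at a Benjamini-Hochberg adjusted p under 0.05, where 3.29% of all 14576 genes tested were lower and 4.18% higher. The lower genes were *Gabra3*, *Cpxm1*, *Ccbe1*, *Rarb*, *Mpp6* and *Egfr*, and the higher genes *Gsta4* and *St3gal1*. Of 11 alternative fits at the same threshold, all called *Gabra3*, *Mpp6* and *Gsta4*, 10 called *Cpxm1*, 9 *Egfr*, 8 *Ccbe1* and *Rarb* each, and 7 *St3gal1*. Of these 11 fits, 2 used all 12 libraries. Their spread came partly from Day 3 and 4-week libraries that the choice required not to overlap, so they add no independent support. The same holds for the tallies of 11 fits below. All 19 genes passed the filter on low counts, 14 had a negative fold change and 5 a positive one. Their median log2 fold change was -0.82, against -0.01 over all genes tested. Beyond the calls, both *Sox17*-*Erg* libraries lay below both control libraries in 12 of the 19 (30.3% of all genes tested) and above them in 5 (27.7%), and an unadjusted p under 0.05 was reached by 14 of the 19 and by 3829 of all genes tested. The count of lower members was 3 without control replicate 1, 2 without control replicate 2, 4 without *Sox17*-*Erg* replicate 1 and 7 without *Sox17*-*Erg* replicate 2, and that of higher members 1, 2, 2 and 4 in the same order. Over all genes tested in those fits, 1.27%, 1.43%, 2.07% and 5.44% were lower and 2.02%, 1.88%, 2.7% and 4.54% higher. The summed markers also differed at Day 7. The fibroblast list had 18020 to 25648 CPM in control and 5327 to 11863 with *Sox17*-*Erg*. Only 3 of its 24 tested genes were lower and 1 was higher, with a median log2 fold change of -0.78. The macrophage list without *Apoe* had 1567 to 2127 and 438 to 764, and 9 of the 20 genes of the full list were lower and 1 higher. The epicardial list had 1283 to 2125.5 and 516 to 571, with 7 of 14 genes lower. For 20 cardiomyocyte genes the sums were 654 to 954 and 373 to 484. Of the 17 tested, 4 were lower, and the median log2 fold change was -1.19. The 19 smooth muscle and contractile genes had sums of 3214 to 4398 CPM in control and 4538 to 7220 with *Sox17*-*Erg*, 2 lower, 1 higher and a median of 0.78. The part of all these markers in the calls was not tested. With 2 libraries against 2, a single gene's exact two-sided permutation test cannot give a p below 0.333.

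**Figure D3:**
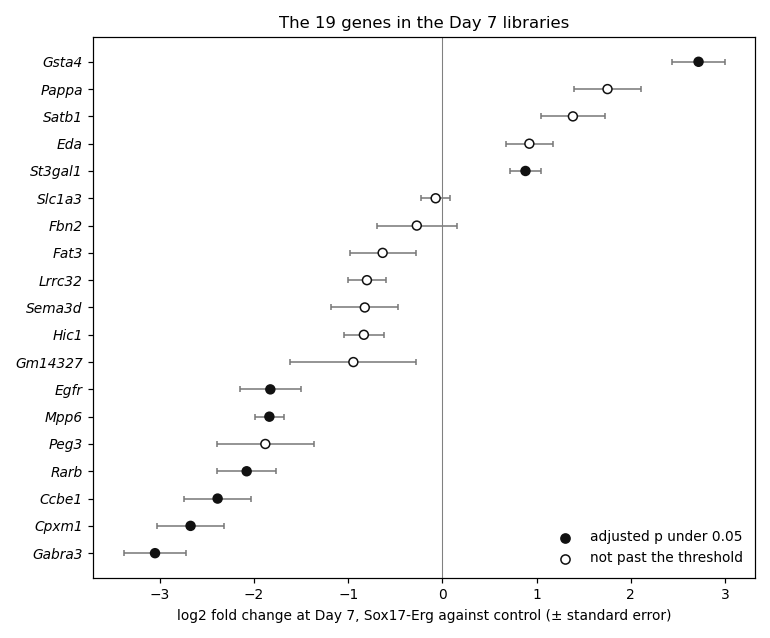
Log2 fold change of Sox17-Erg against control at Day 7 from edgeR (x axis), with bars of 1 standard error derived from the test statistic, for each of the 19 genes. Filled points passed an adjusted p of 0.05. Values run from -3.05 for Gabra3 to 2.72 for Gsta4, with 8 filled points, 6 of them below 0.

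The larger sets from which the 19 were drawn differed from each other at Day 7. Of the other genes that rose in control, 1545 were tested at Day 7, of which 258 were lower with *Sox17*-*Erg* and 37 higher, with a median log2 fold change of -0.81. Of the other genes that fell with *Sox17*-*Erg*, 1353 were tested, of which 38 were lower and 60 higher, with a median of 0.32. Of the 67 genes with the mirror-image pattern, 36 were higher at Day 7 and the median was 1.62. The median of the 19 was thus close to that of the control risers, while their median size of change without regard to sign was 1.39, against 0.91 for the control risers, 0.46 for the *Sox17*-*Erg* fallers, 1.62 for the mirror-image genes and 0.33 over all genes tested. These are descriptions side by side, and the sets were not tested against each other.

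Promoters of 3 of the genes that were lower at Day 7 are shown because their window holds a core match to the SOX or ETS families of the 2 delivered factors. The sequences are RefSeq promoters of GRCm38.p6, from 250 bases before to 50 bases after the start, at chr6:50109991-50110290 on the plus strand for *Mpp6*, chr14:16575427-16575726 on the minus strand for *Rarb* and chr11:16751953-16752252 on the plus strand for *Egfr*. The *Rarb* window lies inside the gene (chr14:16430839-16819156), far from its annotated 5′ end, so it belongs to an internal start. Counts per gene do not show which start the transcripts used. Capitals mark matches on either strand to ACAATG or ACAAAG (SOX), to AGGAAGT or CCGGAAG (ETS) and, in *Rarb*, a direct repeat of GTTCAC with 5 bases between the copies, which are in capitals too.
Mpp6: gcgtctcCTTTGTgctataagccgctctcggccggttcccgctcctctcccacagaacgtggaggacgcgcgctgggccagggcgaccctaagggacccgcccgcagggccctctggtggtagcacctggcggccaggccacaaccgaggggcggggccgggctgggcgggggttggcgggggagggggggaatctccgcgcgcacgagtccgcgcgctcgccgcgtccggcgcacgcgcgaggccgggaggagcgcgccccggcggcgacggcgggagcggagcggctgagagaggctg
Rarb: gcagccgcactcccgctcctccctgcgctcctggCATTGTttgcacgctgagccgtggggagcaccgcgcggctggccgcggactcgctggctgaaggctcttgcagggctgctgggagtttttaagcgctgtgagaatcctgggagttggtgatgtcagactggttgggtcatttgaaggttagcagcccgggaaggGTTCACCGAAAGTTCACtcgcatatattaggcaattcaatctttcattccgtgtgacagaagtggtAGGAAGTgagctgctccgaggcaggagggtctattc
Egfr: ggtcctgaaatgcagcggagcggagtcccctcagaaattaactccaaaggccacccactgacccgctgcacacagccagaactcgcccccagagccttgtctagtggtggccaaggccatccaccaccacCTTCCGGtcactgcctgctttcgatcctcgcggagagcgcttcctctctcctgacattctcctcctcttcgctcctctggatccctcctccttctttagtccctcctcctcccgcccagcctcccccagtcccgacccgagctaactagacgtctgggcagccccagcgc
*Mpp6* holds a SOX match at its 5′ end and an ETS match in another of its promoters, not shown, *Rarb* a SOX match, the repeat and an ETS match, and *Egfr* an ETS match. The repeat in *Rarb* has the form of a retinoic acid response element, to which retinoic acid receptors bind, and was searched for after the genes were known. It was found in 2 of 32851 promoters of the table (0.00609%). Of the other members with a promoter entry, *Gabra3*, *Satb1* and *Sema3d* had a SOX match and *Satb1* an ETS match in at least 1 of their promoters.

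Promoter entries were matched for 12 of the 19 genes, with 19 promoters among them. *Ccbe1*, *Fbn2*, *Gm14327*, *Gsta4*, *Lrrc32*, *Pappa* and *St3gal1* were not matched. A SOX match was found in 6 of the 19 promoters (31.6%) and in 28.6% of all promoters, and an ETS match in 5 (26.3%) and in 17.3% of all. GGAATG, the core of a TEAD site, was in 4 (21.1%, against 14.7%) and TATAAA in 3 (15.8%, against 13.6%). The AP-1 letters TGANTCA and the E-box CACGTG were in none of the 19, and in 7.81% and 7.15% of all promoters. The SOX share was thus close to that of all promoters. These are letter matches in a short window, and binding was not measured.

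Among the secreted and matrix genes, *Pappa* (chr4:65124174-65357509) moved most in control (positions are of GRCm38). It encodes pappalysin-1, a metalloproteinase that cleaves IGF-binding protein 4 and so releases insulin-like growth factor. In control libraries, *Pappa* read 16.5 and 7.07 CPM on Day 3, 24.7 and 39.96 on Day 7 and 81.6 and 54.4 by 4 weeks. *Pappa* with *Sox17*-*Erg* read 90.1 and 70.7 CPM on Day 3, 84.4 and 136 on Day 7 and 27.1 and 21.9 by 4 weeks. With *Sox17*-*Erg* the gene was thus high early and low late, without overlap with control at any time. The Day 7 difference was 1.75 ± 0.35 (log2 fold change ± standard error derived from the test statistic, n = 2 and 2 libraries). It had an adjusted p of 0.0514 by edgeR's quasi-likelihood test, just above the threshold of 0.05. It was not called here but was in 8 of 11 alternative fits.

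Other parts of the insulin-like growth factor axis did not share this pattern. Of 14 genes tested from that list, *Igf2*, *Igfbp4* and *Igfbp6* were lower at Day 7 and *Igf1* and *Igfbp5* higher, and the list's median log2 fold change was 0.14. *Igfbp4*, whose product is the main substrate of pappalysin-1, read 54.3 and 32.7 CPM on Day 3, 217 and 297 on Day 7 and 539 and 366 by 4 weeks in control. In *Sox17*-*Erg* libraries *Igfbp4* was at 31.1 and 20.5, 28.2 and 33.3 and 112 and 118. Both treatments were thus higher at 4 weeks than at Day 3, and *Sox17*-*Erg* was lower than control at each time, with a Day 7 log2 fold change of -3.07 ± 0.24 (edgeR adjusted p = 0.00980). *Igfbp5*, another substrate, was higher at Day 7 by 1.80 ± 0.35 on the log2 scale (edgeR adjusted p = 0.0495), and the ligand gene *Igf1* by 1.95 ± 0.37 (edgeR adjusted p = 0.0467).

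*Fbn2* (chr18:58008623-58210487) encodes fibrillin-2, a protein of the microfibrils on which elastic fibers form. Control levels of *Fbn2* were 63.5 and 62.7 CPM (Day 3), 128 and 291 (Day 7) and 228 and 139.5 (4 weeks). *Fbn2* under *Sox17*-*Erg* went from 148 and 123 CPM through 162 and 190.2 to 42.9 and 35.3. Both *Sox17*-*Erg* libraries lay above control at Day 3 and below it at 4 weeks, with overlap at Day 7, where the control libraries themselves were far apart. At Day 7 the log2 fold change was -0.27 ± 0.42, with an edgeR adjusted p of 0.727, and it turned to 0.53 without control replicate 2. Of 31 tested genes for collagens and elastic fibers, *Col6a3*, *Col8a2* and *Fbln1* were lower at Day 7 and *Col11a1*, *Col14a1* and *Fbln5* higher, with a list median of 0.30. *Fbn1*, which encodes the fibrillin of mature microfibrils, had steps of -0.72 in control and 0.01 with *Sox17*-*Erg*.

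*Ccbe1* (chr18:66045302-66302741) encodes a secreted protein needed for the processing of VEGF-C and for lymphatic vessel growth. *Ccbe1* in control went from 2.58 and 1.42 CPM on Day 3 through 3.51 and 4.54 on Day 7 to 6.43 and 5.97 by 4 weeks. Under *Sox17*-*Erg*, its levels were 2.31 and 1.07 CPM (Day 3), 0.679 and 0.879 (Day 7) and 0.726 and 0.120 (4 weeks), the last from 21 and 3 counts. The treatments overlapped at Day 3 and were apart from Day 7 on. *Ccbe1* was 5.23-fold lower at Day 7 (log2 fold change -2.39 ± 0.35, edgeR adjusted p = 0.0288), and the call was lost without control replicate 1 (adjusted p = 0.0502 by edgeR), control replicate 2 (0.0953) or *Sox17*-*Erg* replicate 1 (0.0706).

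*Cpxm1* (chr2:130390775-130397574) encodes a secreted protein of the carboxypeptidase family. In control libraries, *Cpxm1* read 6.57 and 5.16 CPM on Day 3, 14.1 and 16.2 on Day 7 and 16.6 and 13.8 by 4 weeks. Its *Sox17*-*Erg* levels were 2.26 and 2.83 CPM first, 1.68 and 3.16 on Day 7 and 0.553 and 1.80 last. All *Sox17*-*Erg* libraries were below all control libraries of the same time, already at Day 3, and the control rise was complete by Day 7. At Day 7 *Cpxm1* was 6.38-fold lower (log2 fold change -2.67 ± 0.35, edgeR adjusted p = 0.0243), with an adjusted p of 0.0522 without control replicate 2.

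*Sema3d* (chr5:12383385-12588948) encodes a secreted semaphorin, a guidance cue for axons and for cardiac and vascular cells. Control levels of *Sema3d* were 87.6 and 41.8 CPM (Day 3), 81.3 and 37.7 (Day 7) and 114 and 99.3 (4 weeks). *Sema3d* with *Sox17*-*Erg* read 62.7 and 44.8 CPM on Day 3, 36.7 and 29.8 on Day 7 and 26.0 and 32.3 by 4 weeks. The treatments overlapped at Day 3, were barely apart at Day 7 and well apart at 4 weeks. Its log2 fold change at Day 7 was -0.82 ± 0.36, with an edgeR adjusted p of 0.227. It was -0.22 without control replicate 1 and -1.22 without control replicate 2, and of 11 alternative fits only that with the replicate number as a block called the gene (adjusted p = 0.022).

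*Egfr* (chr11:16752203-16918158), the receptor for epidermal growth factor and its relatives, lay below control in every *Sox17*-*Erg* library. *Egfr* in control went from 55.1 and 41.5 CPM on Day 3 through 80.4 and 106 on Day 7 to 131 and 116 by 4 weeks. *Egfr* under *Sox17*-*Erg* went from 32.0 and 34.2 CPM through 19.1 and 33.9 to 14.9 and 22.7. Even the highest *Sox17*-*Erg* library was below the lowest control library of any time. The Day 7 level was 3.55-fold lower (log2 fold change -1.83 ± 0.33, edgeR adjusted p = 0.0417), with an adjusted p of 0.0502 without control replicate 1 and 0.0969 without control replicate 2. The differences of mean log2(1 + CPM) were -0.52 (Day 3), -1.81 (Day 7) and -2.68 (4 weeks).

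*Gabra3* (chrX:72432681-72656848), which encodes the alpha-3 subunit of the GABA-A receptor chloride channel, had the largest fitted decrease of the 19 at Day 7. In control libraries, *Gabra3* read 0.554 and 0.445 CPM on Day 3, 3.71 and 3.34 on Day 7 and 4.03 and 4.60 by 4 weeks. Under *Sox17*-*Erg*, its levels were 0.947 and 1.07 CPM (Day 3), 0.407 and 0.439 (Day 7) and 0.138 and 0.160 (4 weeks), which at 4 weeks were 4 counts in each library. Treated libraries were above control at Day 3, when both were low, and below it afterwards. At Day 7 it was 8.28-fold lower (log2 fold change -3.05 ± 0.33, edgeR adjusted p = 0.0165) on 93 and 86 counts against 15 and 10.

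*Lrrc32* (chr7:98489283-98502181) encodes GARP, a membrane protein that docks latent TGF-beta. Control levels of *Lrrc32* were 113 and 142 CPM (Day 3), 152 and 179.7 (Day 7) and 239.5 and 309 (4 weeks). Its *Sox17*-*Erg* levels were 137 and 203 CPM first, 83.2 and 109 on Day 7 and 98.0 and 92.7 last. The fall was complete by Day 7, with overlap of the treatments at Day 3 and none later. Its Day 7 log2 fold change of -0.80 ± 0.20 had an edgeR adjusted p of 0.0815, and 4 of 11 alternative fits called it.

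*Eda* (chrX:99975606-100400762) encodes ectodysplasin A, a ligand of the tumor necrosis factor family that acts in skin appendages. *Eda* in control went from 6.39 and 5.34 CPM on Day 3 through 9.78 and 14.4 on Day 7 to 13.0 and 16.0 by 4 weeks. *Eda* with *Sox17*-*Erg* read 33.3 and 22.9 CPM on Day 3, 22.5 and 23.8 on Day 7 and 11.5 and 13.7 by 4 weeks. They started well above control and met it at 4 weeks, the only overlap among the 19 at that time. On Day 7 the log2 fold change was 0.92 ± 0.25 (edgeR adjusted p = 0.0938), and it was called in 5 of 11 alternative fits.

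*Slc1a3* (chr15:8634124-8710764), which encodes a glutamate and aspartate transporter, diverged late. In control libraries, *Slc1a3* read 12.3 and 10.4 CPM on Day 3, 14.6 and 14.1 on Day 7 and 17.4 and 21.7 by 4 weeks. *Slc1a3* under *Sox17*-*Erg* went from 13.4 and 13.2 CPM through 13.4 and 14.1 to 4.11 and 5.36. The 8 libraries of Day 3 and Day 7 lay close together, and the treatments were far apart only at 4 weeks. Its log2 fold change at Day 7 was -0.07 ± 0.16 (edgeR adjusted p = 0.810).

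*Fat3* (chr9:15910189-16501285), an atypical cadherin, was low throughout. Control levels of *Fat3* were 1.07 and 0.356 CPM (Day 3), 1.56 and 1.63 (Day 7) and 3.69 and 1.37 (4 weeks). Under *Sox17*-*Erg*, its levels were 5.21 and 2.59 CPM (Day 3), 1.004 and 1.05 (Day 7) and 0.829 and 0.640 (4 weeks). Most of the fall lay before Day 7, and the control libraries of 4 weeks differed widely. At Day 7 the log2 fold change was -0.63 ± 0.35 (edgeR adjusted p = 0.326).

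The enzymes *Gsta4* and *St3gal1* were the members that were higher with *Sox17*-*Erg* at Day 7. *Gsta4* (chr9:78182774-78209349) encodes a glutathione transferase that clears products of lipid peroxidation. *Gsta4* in control went from 7.53 and 5.16 CPM on Day 3 through 9.22 and 12.2 on Day 7 to 19.1 and 14.3 by 4 weeks. Its *Sox17*-*Erg* levels were 102 and 89.8 CPM first, 56.9 and 85.4 on Day 7 and 24.7 and 23.6 last. Both *Sox17*-*Erg* libraries were above control at every time, by less at each, with differences of 3.74, 2.61 and 0.52 in mean log2(1 + CPM). The Day 7 level was 6.59-fold higher (log2 fold change 2.72 ± 0.28, edgeR adjusted p = 0.0147). Among 23 tested oxidative stress genes *Gsta4* was the only one higher at Day 7, while *Mt2*, *Hmox1* and *Gsta3* were lower, and its relative *Gsta3* had a log2 fold change of -3.93 ± 0.40 (edgeR adjusted p = 0.0142).

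*St3gal1* (chr15:67102875-67176830) encodes a sialyltransferase that caps O-linked glycans. In control libraries, *St3gal1* read 104 and 85.1 CPM on Day 3, 155 and 131 on Day 7 and 174 and 151 by 4 weeks. *St3gal1* with *Sox17*-*Erg* read 327 and 236 CPM on Day 3, 282 and 245 on Day 7 and 134 and 144 by 4 weeks. Treated libraries were above control at Day 3 and Day 7 and slightly below at 4 weeks. At Day 7 it was 1.84-fold higher (log2 fold change 0.88 ± 0.17, edgeR adjusted p = 0.0457), and the call was lost with column totals in place of TMM (edgeR adjusted p = 0.0542) and without control replicate 1 (0.110), control replicate 2 (0.180) or *Sox17*-*Erg* replicate 1 (0.139).

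*Mpp6* (chr6:50110241-50198939), a scaffold protein of the membrane-associated guanylate kinase family, had the smallest adjusted p of the 19. Control levels of *Mpp6* were 63.2 and 50.7 CPM (Day 3), 159 and 126 (Day 7) and 139 and 179.9 (4 weeks). *Mpp6* under *Sox17*-*Erg* went from 75.5 and 70.4 CPM through 41.3 and 38.3 to 31.9 and 31.9. Treated libraries were just above control at Day 3 and far below it at Day 7, by when most of both movements had taken place. At Day 7 *Mpp6* was 3.57-fold lower (log2 fold change -1.84 ± 0.16, edgeR adjusted p = 0.0108).

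Of the transcription regulators, *Rarb* (chr14:16430839-16819156) encodes retinoic acid receptor beta, a receptor that is itself induced by retinoic acid. *Rarb* in control went from 1.55 and 1.91 CPM on Day 3 through 4.59 and 3.69 on Day 7 to 3.88 and 4.19 by 4 weeks. Under *Sox17*-*Erg*, its levels were 3.73 and 2.22 CPM (Day 3), 0.869 and 1.10 (Day 7) and 1.11 and 0.920 (4 weeks). Both movements were complete by Day 7, from *Sox17*-*Erg* above control to *Sox17*-*Erg* below it. *Rarb* was 4.22-fold lower at Day 7 (log2 fold change -2.08 ± 0.31, edgeR adjusted p = 0.0294), and the call was lost without control replicate 1 (edgeR adjusted p = 0.0839), control replicate 2 (0.0722) or *Sox17*-*Erg* replicate 1 (0.0848).

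*Satb1* (chr17:51736187-51833290) encodes a chromatin organizer first known from T cells. In control libraries, *Satb1* read 3.06 and 3.16 CPM on Day 3, 4.95 and 7.34 on Day 7 and 7.98 and 8.13 by 4 weeks. Its *Sox17*-*Erg* levels were 24.1 and 12.5 CPM first, 19.6 and 12.7 on Day 7 and 8.60 and 10.4 last. Like *Gsta4*, it was above control in both *Sox17*-*Erg* libraries of every time, by 2.16, 1.25 and 0.21 in mean log2(1 + CPM). On Day 7 the log2 fold change was 1.39 ± 0.34 (edgeR adjusted p = 0.0756), and the gene was called in 6 of 11 alternative fits.

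*Peg3* (chr7:6703892-6730431) is a paternally expressed imprinted gene for a zinc finger protein. Control levels of *Peg3* were 229 and 199 CPM (Day 3), 326 and 701 (Day 7) and 686 and 362 (4 weeks). *Peg3* with *Sox17*-*Erg* read 159 and 119 CPM on Day 3, 94.8 and 189 on Day 7 and 74.0 and 83.6 by 4 weeks. Each *Sox17*-*Erg* library was below the control libraries of its time, and both groups had a wide gap between libraries at Day 7. The Day 7 log2 fold change of -1.88 ± 0.52 had an edgeR adjusted p of 0.0984, and *Peg3* too was called in 6 of the 11. The change was -1.14 without control replicate 2 (adjusted p = 0.252) and -2.44 without *Sox17*-*Erg* replicate 2 (adjusted p = 0.0386).

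*Hic1* (chr11:75164565-75169519) encodes a zinc finger repressor that marks quiescent mesenchymal progenitors. *Hic1* in control went from 34.8 and 42.1 CPM on Day 3 through 73.4 and 52.8 on Day 7 to 58.3 and 72.4 by 4 weeks. *Hic1* under *Sox17*-*Erg* went from 45.6 and 43.3 CPM through 30.3 and 40.5 to 21.3 and 30.2. The treatments were close at Day 3 and apart from Day 7 on. Its log2 fold change at Day 7 was -0.83 ± 0.21 (edgeR adjusted p = 0.0852), and 5 of 11 alternative fits called it.

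*Gm14327* (chr2:177897096-177905784) is uncertain as a member. It shares 93.0% of its 31-base words with other genes, 76.3% with *Gm14288*, and overlaps *Zfp972* on the other strand, so that the counting could split its reads. GENCODE M21 lists it as protein-coding, and the RefSeq table as a transcribed pseudogene. In control libraries, *Gm14327* read 0.812 and 1.25 CPM on Day 3, 4.15 and 1.01 on Day 7 and 3.18 and 2.78 by 4 weeks. Under *Sox17*-*Erg*, its levels were 4.37 and 0.534 CPM (Day 3), 1.36 and 1.27 (Day 7) and 0 and 0.280 (4 weeks). The first *Sox17*-*Erg* library of 4 weeks held no count, which allows up to 0.104 CPM at its depth, and the libraries of control at Day 7 and of *Sox17*-*Erg* at Day 3 were far apart, with overlap of the treatments at Day 3 and Day 7. On Day 7 the log2 fold change was -0.94 ± 0.67 (edgeR adjusted p = 0.432), and it turned to 0.34 without control replicate 1.

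**Figure D4:**
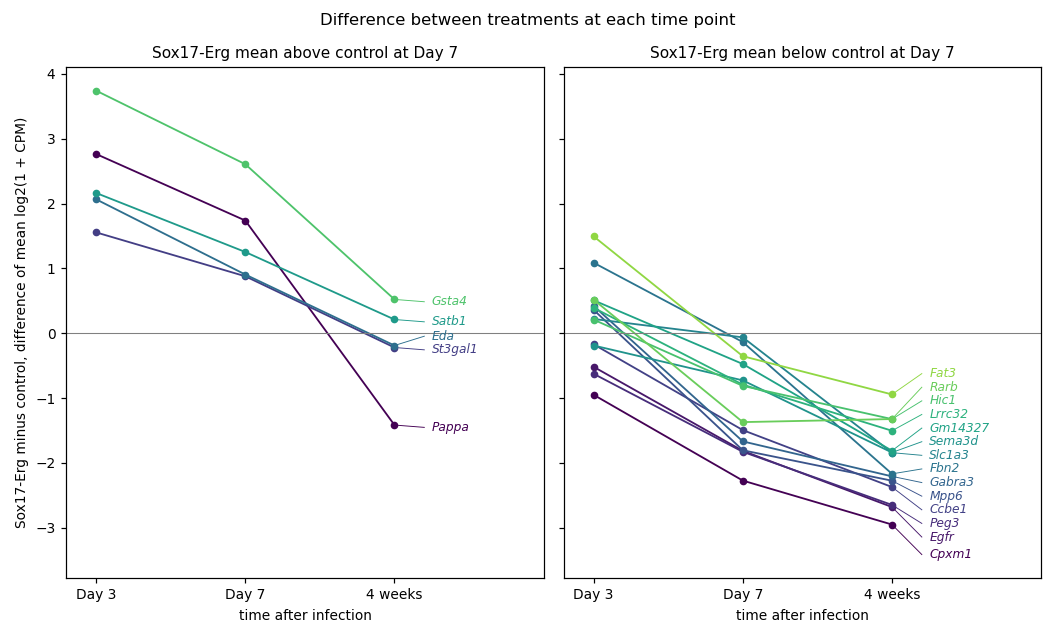
Sox17-Erg minus control in mean log2(1 + CPM) of 2 libraries at Day 3, Day 7 and 4 weeks, for the 5 genes whose Sox17-Erg mean was above control at Day 7 (left) and the 14 whose mean was below (right). The lines on the left start between 1.56 and 3.74 at Day 3 and end between -1.42 and 0.52, and those on the right end between -2.95 and -0.94.

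At Day 3 the differences in mean log2(1 + CPM) ranged from well above control with *Sox17*-*Erg* to below it. *Gsta4* (3.74), *Pappa* (2.76), *Satb1* (2.16), *Eda* (2.07), *St3gal1* (1.56), *Fat3* (1.49) and *Fbn2* (1.09) were more than 1 above control, and the other 12 genes lay between -0.95 for *Cpxm1* and 0.52 for *Rarb*. Among these, *Cpxm1*, *Peg3* (-0.63) and *Egfr* (-0.52) had both libraries below control. The first 5 of those 7 were the members that were still above control in both libraries at Day 7. At 4 weeks 17 of the 19 differences were negative, and *Cpxm1* (-2.95), *Egfr* (-2.68) and *Peg3* (-2.65), the members whose *Sox17*-*Erg* libraries were both below both control libraries from Day 3 on, had the most negative ones. These differences share libraries with the choice and carry no test.

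The 19 genes spread over many chromosomes and were long. Their median span was 97.1 kb, from 4.96 kb for *Hic1* to 591 kb for *Fat3*, against 24.6 kb over 13759 protein-coding genes tested at Day 7, and 15 of the 19 were above that median. The median of the longest transcript was 5105 bases against 3496, and the median GC content 46.9% against 49.6%. Except for *Gm14327*, no member shared more than 1.5% of its 31-base words with other genes. Overlaps with a named gene on the opposite strand included *Mpp6* with *Gsdme*, *Rarb* with *Top2b* and *Egfr* with *Egfros*, in stranded libraries whose counting with respect to strand is not given in the sources used here. Of 26 gene lists on fibroblast, endothelial, matrix, signaling and stress functions, 23 held none of the 19, and *Pappa*, *Fbn2* and *Gsta4* were the only members in any of them.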

How the data were processed

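Stranded mRNA libraries (Kapa) were sequenced as paired ends. Per the methods and the submitters' processing notes, the authors demultiplexed reads with bcl2fastq 2.20.0, trimmed them with BBDuk, quantified them with Salmon and used DESeq2, with mm10 as the genome build. The Salmon version and annotation are not given in the sources used here. The deposited table holds estimated counts as whole numbers, unscaled, with 35727 Ensembl genes. Symbols, biotypes and positions came from GENCODE M21 (GRCm38), which matched 35493 IDs.

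The choice of genes used CPM from column totals with a pseudocount of 1. *Sox17*-*Erg* was compared with control in the 4 Day 7 libraries in R 4.3.3 with edgeR 4.0.16 (glmQLFit, glmQLFTest, TMM, filterByExpr at min.count 10 and min.total.count 15). The threshold was an adjusted p (Benjamini-Hochberg) under 0.05 over all 14576 genes tested. Standard errors of the edgeR fits are the size of the log2 fold change divided by the square root of the test's F statistic. The fit was tested on simulated data. DESeq2 1.42.0, other scalings, filters and samples were tried as alternatives. All 19 genes are named, as the rule for 40 or fewer members asks. The members, gene lists and motifs were chosen with earlier results of these data known. At 19011635 to 41240449 counts per library, 3 counts correspond to 0.0727 to 0.158 CPM, and low values carry at least counting error. Estimated counts are not corrected for gene length, so levels are compared between libraries and not between genes.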

Additional observations from a re-analysis of the deposited data

Results flagged for a closer look

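For 6 of the 19 genes, both *Sox17*-*Erg* libraries were above both control libraries at Day 3 and below both at Day 7, so that the treatments changed order within the first week. Over all 14576 genes tested at Day 7, 304 (2.09%) changed order in this way. The Day 7 differences in mean log2(1 + CPM), *Sox17*-*Erg* minus control, were -1.80 for *Mpp6*, -1.67 for *Gabra3*, -1.37 for *Rarb*, -0.81 for *Hic1*, -0.35 for *Fat3* and -0.064 for *Slc1a3*. The Day 3 differences were 0.36 for *Mpp6*, 0.42 for *Gabra3*, 0.52 for *Rarb*, 0.21 for *Hic1*, 1.49 for *Fat3* and 0.22 for *Slc1a3*. The change between the time points was not tested, because the Day 3 libraries chose the genes, and nothing is read from the 2 counts side by side. The Day 7 difference of *Slc1a3* is about as large as the gaps between its libraries of one group.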

How the results depend on the processing

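With 2 libraries per group the number of calls at Day 7 depended on the fit. The 6 members lower at Day 7 became 0 at an adjusted p under 0.01 and 2 to 7 with 1 library left out; the other alternatives gave 6 to 9 without a replicate block. The 2 members higher became 5 with all 12 libraries, with DESeq2 and with no filter beyond 1 count, 1 with column totals, 0 at an adjusted p under 0.01 and 1 to 4 with 1 library left out. Over all genes, 479 lower and 609 higher became 1230 and 1470 with all 12 libraries, 1156 and 1092 with DESeq2, 1162 and 1047 with no filter, 11 and 69 at an adjusted p under 0.01, and 192 to 825 and 282 to 688 with 1 library left out, where the lone library is assumed to vary like the other group. *Mpp6*, *Gabra3* and *Gsta4* passed in all 11 alternatives at an adjusted p under 0.05, with the highest edgeR adjusted p at 0.0241, 0.0495 and 0.0326. The Day 7 change of *Fbn2* ran from -0.77 without control replicate 1 to a reversed 0.53 without control replicate 2, and that of *Gm14327* from -1.58 without control replicate 2 to a reversed 0.34 without control replicate 1, and neither passed under any alternative. Of 228 Day 7 values of single members under the alternatives, 170 kept direction and side of the threshold, 35 passed it, 21 no longer did and 2 reversed. The 2 fits on all 12 libraries took part of their spread from libraries that the choice used.

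Same-numbered libraries deviated together at Day 7 with a correlation of 0.35 across 14576 genes in 2 pairs, which is too few to pair them, and the labels do not say that a number marks a shared isolation. The paper states that compared conditions used virus made on one day and that control and experimental replicates ran in parallel. It does not tie the replicate numbers to such batches. With the replicate number as a block, 10 members were lower and 5 higher, with 2043 and 1936 over all genes, and with the block and all 12 libraries 9 and 5, with 1460 and 1572 over all genes.

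The number of members was 42 with a step of 0.5, 5 with 1.0, 21 with TMM scaling or without the condition on overlap, 28 and 14 with pseudocounts of 0.5 and 2 CPM, and 15 to 31 with 1 library left out, with 31 without control replicate 1 at Day 3 and 30 without *Sox17*-*Erg* replicate 2 at Day 3. The cause of these movements was not tested. *Fat3*, *Ccbe1*, *Rarb*, *Gabra3* and *Gm14327* rest on low counts in some libraries (from 0 in *Gm14327* and 3 in *Ccbe1*), where depth limits the values.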
